A study of Mus musculus with 8 samples.

Results

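The small intestinal crypts of Ctrl mice were compared with the villi of Ctrl mice, gene by gene, across the bulk RNA-seq libraries of a study on cyclooxygenase in the intestinal mesenchyme. The comparison took the 4 samples labelled as Ctrl crypts and Ctrl villi out of 8 samples in the series. The 2 Ctrl villus columns held identical values for all 12701 genes listed there and were counted as 1 library, so 3 distinct Ctrl libraries entered, 2 from crypts and 1 from villi. The labels give the Ctrl mice as WT on a C57BL/6 background and name Gli1-CreERT2 and Rosa26-tdTomato as their alleles, so that Cre recombinase would be made in Gli1-expressing mesenchymal cells, whereas the study's text describes Ctrl animals with floxed *Ptgs1* and *Ptgs2* and no Cre. The other 4 samples, used here only side by side, are crypts and villi of Gli1-PtgscKO mice, which lose *Ptgs1* and *Ptgs2*, the cyclooxygenase genes, in the mesenchymal cells that express *Gli1*. All mice were sampled 1 month after tamoxifen, and neither their age, nor the part of the small intestine, nor the number of animals per library is given in the sources used here.

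The epithelium of the small intestine is renewed from the crypts. Stem cells at the crypt base, kept by Wnt signals and wedged between Paneth cells that secrete antimicrobial peptides, feed a zone of rapidly dividing progenitors. Their daughters leave the crypt, stop dividing and mature on the villus into absorptive enterocytes, goblet cells and hormone-secreting enteroendocrine cells, until they are shed at the villus tip.

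Counts per gene were recovered from the deposited values and scaled to counts per 1000000 reads (CPM) over the 11227 genes listed for both tissues. The shared genes held 19550615 and 21090158 reads in the 2 crypt libraries and 14536744 reads in the villus library. The difference of a gene is the mean of the 2 crypt libraries minus the villus library on the log2(CPM + 1) scale, and a gene was called higher in crypts or higher in villi where both crypt libraries differed from the villus library by at least 2-fold in the same direction. With 1 villus library and with tables that were normalized separately, no test was run between the tissues, and all differences between the tissues are descriptive, with no p-value and no villus replicate. Bulk values cannot separate fewer cells of a type from less RNA per cell.

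By that rule 5427 genes were higher in crypts, 48.3% of the genes compared, and 860 were higher in villi, 7.66%. The excess on the crypt side went with a shift of the whole distribution, whose median difference over all genes was 1.06. TMM scaling, which centres the bulk of genes, moved that median to 0.10 and gave 2692 genes higher in crypts (24.0%) and 2419 higher in villi (21.5%). The difference also rose with transcript length: median differences ran from -0.27 and -0.43 in the lowest length decile to 2.09 and 2.14 in the highest (Spearman's rho across 11219 genes of 0.437 and 0.485 for the 2 crypt libraries; genes are not independent replicates). In the 4 pairings of Gli1-PtgscKO libraries the same rho lay between -0.147 and 0.331. After a length correction, 1975 genes were higher in crypts (17.6%) and 2033 higher in villi (18.1%). Across 5 treatments of the data (CPM scaling, TMM, DESeq2 size factors, length correction, length and GC correction) 1106 genes were called higher in crypts each time (9.85%) and 667 higher in villi (5.94%), and such genes are referred to as called throughout. The crypt libraries resembled each other, with a median absolute log2 difference of 0.18, while 289 genes (2.57%) differed by over 2-fold between them.

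**Figure D1:**
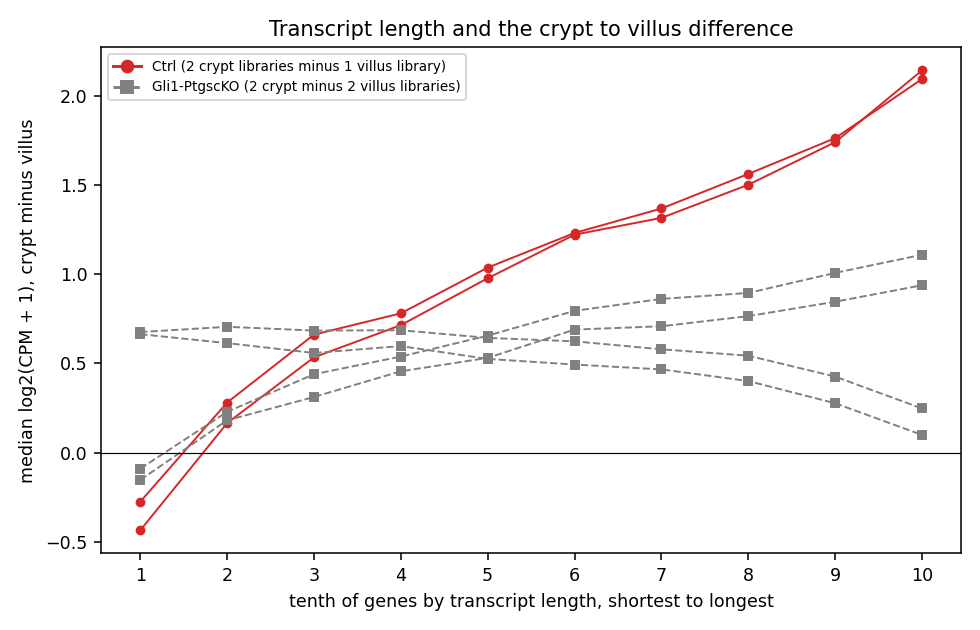
Median log2(CPM + 1) difference, crypt minus villus, for deciles of the genes ordered from the shortest to the longest transcript; solid lines are the 2 Ctrl crypt libraries against the Ctrl villus library, dashed lines the 4 pairings of Gli1-PtgscKO libraries. The Ctrl lines climb from below 0 to about 2.1, while the Gli1-PtgscKO lines stay between -0.15 and 1.11 and go both ways.

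The tissue labels were checked first on *Olfm4*, a secreted glycoprotein of crypt base stem cells, and *Lyz1*, the lysozyme of Paneth cells. *Olfm4* (chr14:79984081-80023139, GRCm38) had 4034 and 3673 CPM in the crypt libraries and 101 CPM in the villus library, 38.2-fold higher in crypts. *Lyz1* (chr10:117287797-117292868) had 12960.4 and 10518 CPM in the crypt libraries and 135 CPM in the villus library, 86.9-fold higher in crypts. In the other direction, *Fabp2*, the fatty acid binding protein of mature enterocytes, had 676 and 719 CPM in the crypt libraries and 9516 CPM in the villus library, 13.6-fold higher in the villus library. All 3 genes were called throughout, and for these 3 the labels and the levels point the same way. Other enterocyte markers were mixed. *Apoa1*, *Apoa4* and *Fabp1* were called higher in villi throughout. *Alpi* was lower in both crypt libraries but not called (log2 differences -1.39 and -0.77). *Sis* lay above the villus library in both crypt libraries (0.14 and 0.70) and was not called.

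**Figure D2:**
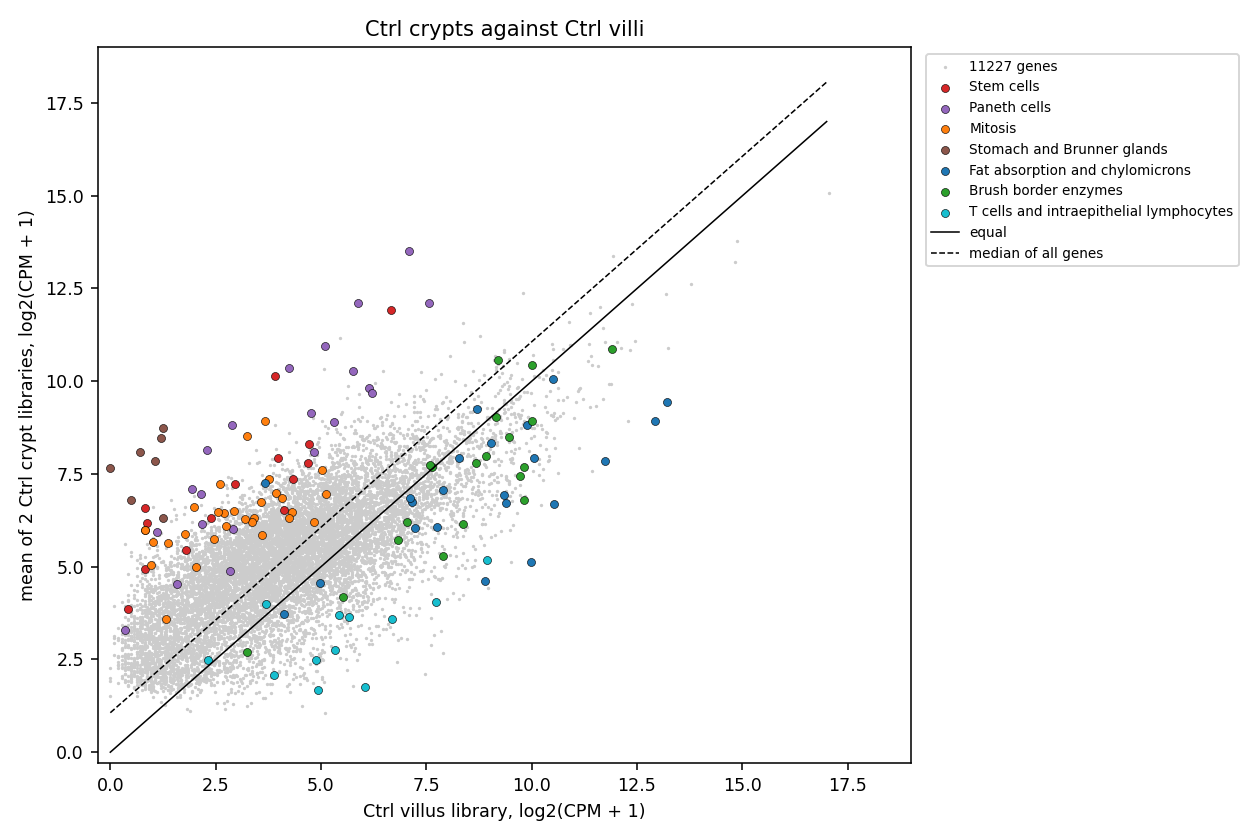
Each point is 1 of 11227 genes, with log2(CPM + 1) in the Ctrl villus library on the x axis and the mean of the 2 Ctrl crypt libraries on the y axis; colours mark 7 gene lists, the solid line marks equal levels and the dashed line the median difference of 1.06. Stem cell, Paneth cell, mitosis and stomach genes lie above the dashed line, and most genes of fat absorption, the brush border and T cells lie below the solid line.

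The stem cell list was higher in crypts without exception among the 14 of its 15 members listed for both tissues, and all 14 were called throughout, against 9.85% of all genes. Their differences ran from 2.40 to 6.22, with a median of 3.94, or 2.88 above the median of all genes. *Lgr5*, the R-spondin receptor that marks the cycling stem cell, had 64.2 and 80.5 CPM in the crypt libraries and 0.825 CPM in the villus library. *Ascl2*, a Wnt-driven transcription factor of the same cells, had 43.0 and 41.8 CPM in the crypt libraries and 2.48 CPM in the villus library. *Smoc2*, a matrix protein, stood lower in the order with 232 and 213 against 24.6 CPM (log2 difference 3.12), and the smallest difference was that of *Igfbp4*, an IGF binding protein, with 92.1 and 89.0 against 16.3 CPM (log2 difference 2.40). In every member both crypt libraries lay above the villus library. *Mex3a*, the remaining member, was listed in the crypt table only.

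*Slc12a2*, which codes for the Na-K-Cl cotransporter NKCC1 and is also used as a stem cell marker, had the largest difference of the list. Its levels were 1057 and 1194 CPM in the crypt libraries and 14.1 CPM in the villus library, 79.8-fold higher in crypts. The 95% binomial interval of the villus level was 12.2 to 16.2 CPM (counting error only). *Gkn3*, a gastrokine also seen in stem cells of the proximal small intestine, followed with 108 and 82.2 against 0.757 CPM (log2 difference 5.76).

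Of 18 Wnt pathway and target genes, 16 were higher in crypts and 0 in villi (12 and 1 under TMM), and 9 were called throughout. Over all genes, 48.3% were higher in crypts and 9.85% were so throughout. *Myc*, the transcription factor that drives growth of the progenitors, had 93.5 and 92.7 CPM in the crypt libraries and 4.88 CPM in the villus library. The sorting receptor *Ephb3* had 45.6 and 48.5 against 2.75 CPM (log2 difference 3.68), and *Ephb2*, its relative, 97.2 and 132 against 15.3 CPM (log2 difference 2.81). The receptors and their regulators lay on the same side: the frizzled receptor *Fzd5* had 286 and 308 against 30.1 CPM, *Lgr4* 292 and 299 against 26.0 CPM and the E3 ligase *Znrf3*, which removes frizzled receptors from the surface, 24.6 and 24.8 against 1.10 CPM. *Wnt3*, the ligand made by Paneth cells, had 18.9 and 18.5 against 1.51 CPM (log2 difference 2.97). *Axin2*, the feedback inhibitor read as a Wnt reporter, had a log2 difference of 2.31 and, like *Ephb2*, was not called throughout. *Sp5*, another direct Wnt target, did not follow, with 23.0 and 23.9 against 29.2 CPM (log2 difference -0.30), and *Efnb1*, a ligand of the Eph receptors, had 94.1 and 104 against 61.9 CPM (log2 difference 0.67).

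Paneth cell genes were higher in crypts in all 21 members listed for both tissues, and 19 were called throughout, against 9.85% of all genes. Their summed level was 32470.3 and 26631 CPM in the crypt libraries and 759 CPM in the villus library. After *Lyz1*, the largest differences were those of *Itln1*, a lectin that binds microbial sugars, with 4648 and 4145 against 57.9 CPM (log2 difference 6.22), and of the antimicrobial ribonuclease *Ang4*, with 1512 and 1133 against 17.7 CPM (log2 difference 6.13). *Mmp7*, the protease that activates the alpha-defensins, had 153 and 122 against 2.82 CPM (log2 difference 5.17). Among the alpha-defensins themselves *Defa24* had 4880.3 and 4055 against 189 CPM (log2 difference 4.55) and *Defa30* 1429 and 1088 against 53.5 CPM (log2 difference 4.52). *AY761184*, another alpha-defensin, had 2312 and 1709 against 33.4 CPM (log2 difference 5.85), and *Gm14851*, which is not on the list but shares sequence with *Defa29*, had 2631 and 2023 against 42.9 CPM (log2 difference 5.72). Defensin transcripts share much of their sequence (55.7% of the 50-base stretches of *Gm14851* and 100% of those of *Defa5* occur in transcripts of another gene), so reads could have been divided among copies and single members are uncertain. The 2 crypt libraries disagreed on the pentraxins, with 702 and 294 against 6.40 CPM for *Mptx2* and 1.74 and 34.7 against 0.275 CPM for *Mptx1*.

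**Figure D3:**
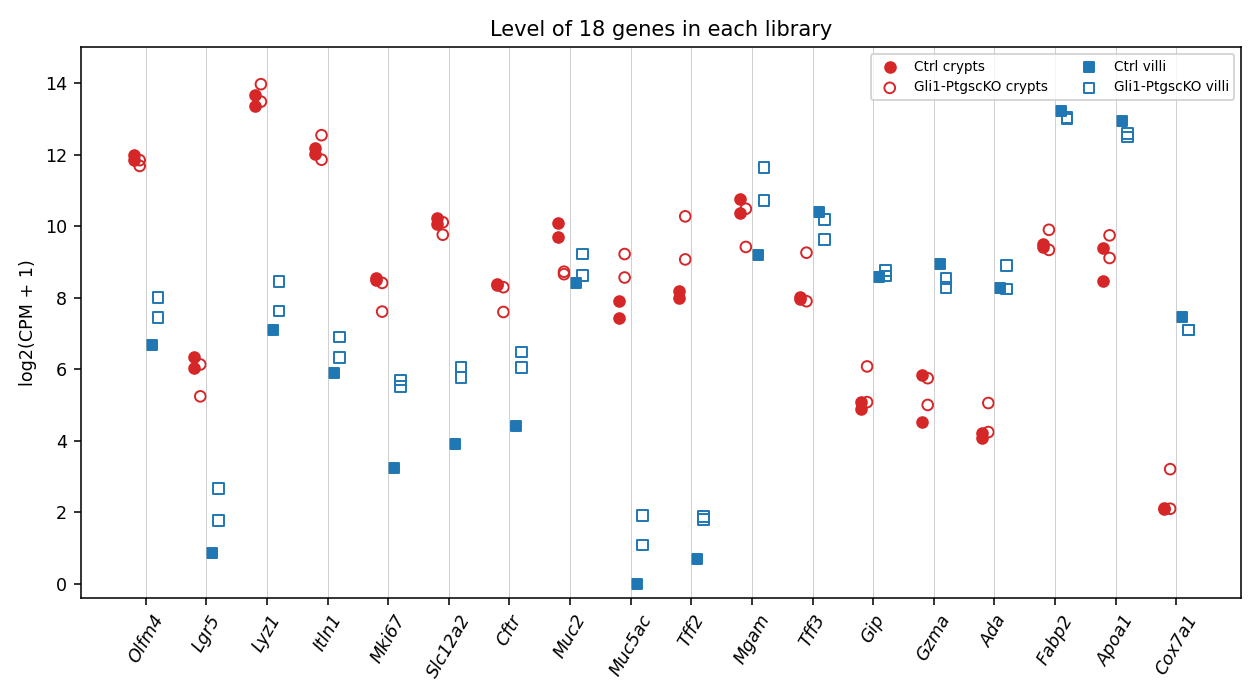
log2(CPM + 1) of 18 genes in each library; filled circles are the 2 Ctrl crypt libraries, filled squares the Ctrl villus library, open symbols the Gli1-PtgscKO libraries. Olfm4, Lgr5, Lyz1, Mki67, Slc12a2, Muc5ac and Tff2 are separated from the villus libraries in both genotypes, Ada, Fabp2, Apoa1 and Cox7a1 in the opposite direction, and Mgam and Muc2 are arranged differently in the 2 genotypes.

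Genes of the dividing cell were higher in crypts. All 30 mitosis genes were called, 24 of them throughout, against 48.3% and 9.85% of all genes. Their differences ran from 1.37 to 5.28, with a median of 3.33. *Mki67*, the antigen used to stain dividing cells, had 374 and 359.8 CPM in the crypt libraries and 8.46 CPM in the villus library. *Top2a*, the topoisomerase that untangles chromosomes, had 497 and 480.5 against 11.8 CPM (log2 difference 5.25), and the kinetochore motor *Cenpe* 61.7 and 64.3 against 0.757 CPM (log2 difference 5.19). *Cdk1*, the kinase that starts mitosis, had 103 and 108 against 10.9 CPM (log2 difference 3.16). *Cenpa*, the centromeric histone, had the smallest difference of the list, 71.3 and 74.0 against 27.5 CPM (log2 difference 1.37).

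Of 34 DNA replication genes, 30 were higher in crypts and 0 in villi (19 and 0 under TMM), with 18 called throughout. The crypt shares of all genes were 48.3% and 9.85%, and the list median was 2.25. *Pola1*, the catalytic subunit of the polymerase that primes new strands, had 50.6 and 56.8 against 1.03 CPM (log2 difference 4.75). All 6 subunits of the MCM2-7 helicase were higher, from 145 and 139 against 30.7 CPM (log2 difference 2.17) for *Mcm5* to 133 and 112 against 5.85 CPM (log2 difference 4.16) for *Mcm4*. *Pcna*, the sliding clamp and the most abundant of the list, had 272 and 229.7 against 60.5 CPM (log2 difference 2.03). *Gins4*, *Rfc2* and *Rpa3* were among the members below 2-fold, and *Rpa3* had 34.0 and 24.8 against 15.4 CPM.

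Promoter sequences of these lists were searched for motifs that are textbook elements of cell cycle genes. RefSeq promoters (GRCm38.p6, the 250 bases before the start, first entry per gene) were matched by symbol for 8971 of the genes compared, 23 of the mitosis genes and 27 of the replication genes. The letters of the cell cycle homology region (CHR), TTTGAA or TTCGAA, on either strand, occurred in 9 of 23 mitosis promoters (39.1%) against 12.2% of the genes compared and 17.4% of all 27025 promoters in the table. CCAAT occurred in 20 of 23 (87.0%) against 36.9% and 34.5%. The E2F letters TTCCCGC or TTGGCGC occurred in 11 of 27 replication promoters (40.7%) against 10.5% and 5.71%. Over genes called throughout, the CHR share was 16.2% on the crypt side and 11.6% on the villus side, and the E2F share 14.9% and 5.90%. The promoters with the largest difference among those that hold the letters are shown, *Mki67* (chr7:135716380-135716629, minus strand; capitals mark CCAAT or ATTGG, and TTTGAA) and *Pola1* (chrX:93632156-93632405, minus strand; capitals mark the E2F letters on either strand), 5′ to 3′ in the direction of the gene.
Mki67: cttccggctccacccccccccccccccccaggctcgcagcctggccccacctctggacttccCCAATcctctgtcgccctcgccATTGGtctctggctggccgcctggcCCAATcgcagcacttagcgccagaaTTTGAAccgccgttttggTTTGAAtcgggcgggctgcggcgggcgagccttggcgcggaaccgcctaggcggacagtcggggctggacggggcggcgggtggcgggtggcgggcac
Pola1: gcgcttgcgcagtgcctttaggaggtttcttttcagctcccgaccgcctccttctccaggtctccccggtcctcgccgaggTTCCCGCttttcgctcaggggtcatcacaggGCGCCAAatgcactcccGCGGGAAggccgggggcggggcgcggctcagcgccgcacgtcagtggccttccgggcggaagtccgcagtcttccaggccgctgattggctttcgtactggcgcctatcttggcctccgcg
The *Mki67* window holds 3 CCAAT boxes, the first 188 bases before the start, and 2 copies of TTTGAA at 116 and 98 bases. The *Pola1* window holds 3 E2F matches, at 169, 138 and 121 bases. These matches are letters in a window and not binding sites.

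Ribosome biogenesis genes, the nucleolar machinery that builds ribosomes, were higher in crypts in 20 of 22 members, 12 of them throughout. The shares over all genes were 48.3% and 9.85%, and the list median was 2.96. *Ncl*, the major nucleolar protein, had 974 and 897 against 48.7 CPM (log2 difference 4.23), and *Npm1*, its partner in the nucleolus, 784 and 710.4 against 47.8 CPM (log2 difference 3.94). The 2 members under 2-fold were *Bop1*, with 90.1 and 86.2 against 56.5 CPM, and *Rrp9*, with 33.6 and 23.2 against 14.4 CPM. Polycomb and DNA methylation genes were higher in 11 of 12 members, 4 of them throughout, against 48.3% and 9.85% of all genes. Among the 4 were the maintenance methyltransferase *Dnmt1* (159 and 171 against 17.2 CPM), and the Polycomb subunits *Ezh2* (96.6 and 86.2 against 8.74 CPM) and *Suz12* (204 and 193 against 15.8 CPM).

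The 5 largest crypt differences of all belonged to genes better known from the stomach and from Brunner glands, the mucous glands under the duodenum. All 7 members listed for both tissues were called throughout, against 9.85% of all genes, with a median of 7.28. Their summed level was 1488 and 1902 CPM in the crypt libraries and 6.19 CPM in the villus library. *Muc5ac*, the gel-forming mucin of the gastric surface (chr7:141788972-141819231), had 3365 and 5017 reads in the crypt libraries and 0 reads in the villus library. Set against a floor of 3 reads this is 993-fold, and the lower 95% limit of the ratio was 813 (counting error only). *Tff2*, a trefoil peptide of mucous neck cells and Brunner glands, had 288 and 252 CPM in the crypt libraries and 0.619 CPM in the villus library (9 reads). The gastrokines *Gkn1* and *Gkn2* had 305 and 417 against 1.31 CPM (log2 difference 7.28) and 362 and 512 against 1.38 CPM (log2 difference 7.50), and *Pgc*, the precursor of a gastric protease, 203 and 257 against 1.10 CPM (log2 difference 6.77). *Mucl3*, a membrane mucin, had 91.2 and 133 against 0.413 CPM (log2 difference 6.30), and the aspartic protease *Ctse* 67.0 and 93.0 against 1.38 CPM (log2 difference 5.07). The villus levels of these 7 genes rest on 0 to 20 reads each. A further 9 members, *Muc6* and *Gast* among them, were listed in the crypt table only.

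The genes of fluid secretion split by step. Of 26 chloride, bicarbonate and water secretion genes, 11 were higher in crypts and 5 in villi (7 and 9 under TMM), with 6 and 5 throughout, and the crypt share was below the 48.3% of all genes. Over all genes the villus share was 7.66%, and the shares throughout were 9.85% in crypts and 5.94% in villi. *Cftr*, the apical chloride channel mutated in cystic fibrosis, had 324 and 334 CPM in the crypt libraries and 20.2 CPM in the villus library, 16.3-fold higher in crypts. Besides *Slc12a2*, the basolateral entry step, the potassium channel *Kcnq1* and its subunit *Kcne3* had log2 differences of 3.22 and 3.14. The water channel *Aqp4* had 79.7 and 86.7 against 1.93 CPM (log2 difference 4.85) and the calcium-activated chloride channel *Ano1* 16.3 and 13.6 against 0.963 CPM (log2 difference 3.02). On the villus side stood *Guca2b*, coding for uroguanylin, with 142 and 184 against 1235 CPM (log2 difference -2.93), *Slc9a3r1*, the scaffold that holds transporters at the brush border, with 266 and 323 against 2238 CPM (log2 difference -2.93), and the anion exchanger *Slc26a6*, with 127 and 189.9 against 457 CPM (log2 difference -1.55). *Guca2a*, for guanylin, had 180.0 and 184 against 164 CPM, and *Gucy2c*, the receptor of both peptides, 301 and 349 against 167 CPM. The sodium-hydrogen exchanger *Slc9a3* of absorptive cells had 63.4 and 74.3 against 54.1 CPM (log2 difference 0.34) and was not called.

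Fat absorption and chylomicron genes were mostly on the villus side. Of 22 members, 11 were higher in villi, all of them throughout, against 5.94% of all genes, and 1 was higher in crypts. *Apoa1*, the apolipoprotein of chylomicrons and HDL (chr9:46228580-46230466), had 349.9 and 669 CPM in the crypt libraries and 7820.1 CPM in the villus library, 15.3-fold higher in the villus library. *Apoc2*, the cofactor of lipoprotein lipase, had 26.5 and 43.5 against 1011 CPM (log2 difference -4.85), although 88.2% of its 50-base stretches also occur in the overlapping gene *Gm44805*. *Apoc3* had 18.4 and 30.2 against 473 CPM (log2 difference -4.27), *Apoa4* 72.4 and 142 against 1476 CPM (log2 difference -3.85) and *Fabp1* 236 and 223 against 3439.8 CPM (log2 difference -3.90). *Apoa4* overlaps *Gm47528* on the opposite strand over 69.8% of its exons, and the strand setting of the counts was not given. *Mogat2*, which rebuilds triglyceride from absorbed monoglyceride, had 87.6 and 124 against 675 CPM (log2 difference -2.68). *Apob*, the structural protein of the chylomicron and a very long transcript, had 480.2 and 762 against 417 CPM (log2 difference 0.54), and *Mttp*, which loads it with lipid, 982 and 1177 against 1455 CPM (log2 difference -0.44). The crypt exception was *Clps*, the colipase, with 175 and 131 against 11.7 CPM (log2 difference 3.58).

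Brush border enzymes were less sharply divided on the CPM scale. Of 19 members, 5 were higher in villi, all throughout, and 1 in crypts, with a median of -0.98, 2.04 below the median of all genes. The shares over all genes were 7.66% in villi (5.94% throughout) and 48.3% in crypts. TMM scaling called 14 higher in villi and 0 in crypts, and the length correction 18 and 0. *Ggt1*, which cleaves glutathione, had 87.4 and 140.2 against 906 CPM (log2 difference -3.02), the alkaline sphingomyelinase *Enpp7* 22.5 and 63.3 against 236 CPM (log2 difference -2.61), the peptidase *Ace* 139.6 and 217 against 837 CPM (log2 difference -2.26), trehalase *Treh* 51.5 and 95.4 against 327 CPM (log2 difference -2.21) and lactase *Lct* 133 and 314 against 894 CPM (log2 difference -2.13). Crypt library 2 was the higher of the 2 crypt libraries in all 5, and both lay below the villus library. Sucrase-isomaltase *Sis* had 1131 and 1671 against 1025 CPM (log2 difference 0.42), and *Mgam*, the maltase-glucoamylase, was the member called higher in crypts, with 1328 and 1719 against 588 CPM (log2 difference 1.36), though not throughout, since its difference turned to -0.45 after the length correction. *Anpep*, aminopeptidase N, had 1583 and 2188 against 3833 CPM (log2 difference -1.04) with 1 crypt library past 2-fold.

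Nutrient transporters and villus tip genes resembled the enzymes. Of 20 sugar and amino acid transporters, 6 were higher in villi throughout, among them the fructose transporter *Slc2a5* (54.2 and 52.7 against 208 CPM), the folate transporter *Slc46a1* (29.2 and 56.4 against 222 CPM) and the neutral amino acid transporter *Slc6a19* (94.3 and 161 against 442 CPM). The share over all genes was 5.94%. The sodium-glucose transporter *Slc5a1* had 620.4 and 945 against 1844 CPM (log2 difference -1.27) with 1 crypt library short of 2-fold, and the glutamate transporter *Slc1a1* stood on the crypt side with 84.6 and 77.1 against 14.2 CPM (log2 difference 2.43). Of 16 villus tip genes, 7 were higher in villi, 6 throughout, against 7.66% and 5.94% of all genes. In crypts 3 were higher, against 48.3% of all genes. *Ada*, adenosine deaminase, had 15.7 and 17.5 against 309 CPM (log2 difference -4.14), *Creb3l3* 79.7 and 92.9 against 593 CPM (log2 difference -2.77) and the keratin *Krt20* 270.3 and 353 against 1180.0 CPM (log2 difference -1.93). *Egfr*, *Fos* and *Ifrd1*, also on that list, were higher in crypts, with 46.0 and 44.2 against 6.26 CPM, 450.2 and 178 against 72.7 CPM and 46.5 and 36.2 against 11.8 CPM, and none of these 3 was called throughout.

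The promoters of absorptive genes were searched for the letters of HNF4 and CDX, families of transcription factors of the intestinal epithelium. AAAGTCC, on either strand, occurred in 5 of 16 brush border promoters (31.2%) against 3.72% of the genes compared and in 0 of 16 fat absorption promoters. TTTATNG occurred in 6 of 16 fat absorption promoters (37.5%) and in 4 of 16 brush border promoters, against 6.24% of the genes compared. Over all genes called throughout, AAAGTCC was in 6.48% of villus-side and 2.79% of crypt-side promoters. TCF letters (CTTTGAT) occurred in 0 of 9 stem cell promoters and 1 of 13 Wnt promoters, against 2.31%. Shown are *Enpp7* (chr11:118987931-118988180, plus strand; capitals mark the HNF4 letters, as GGACTTT on this strand) and *Apoc2* (chr7:19677942-19678191, minus strand; capitals mark the CDX letters, as CAATAAA on this strand), the members of each list with the largest villus difference that hold the letters.
Enpp7: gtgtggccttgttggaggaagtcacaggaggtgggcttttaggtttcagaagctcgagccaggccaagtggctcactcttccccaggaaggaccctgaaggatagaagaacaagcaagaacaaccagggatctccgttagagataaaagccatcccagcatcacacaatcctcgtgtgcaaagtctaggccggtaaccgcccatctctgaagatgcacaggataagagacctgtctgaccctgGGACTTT
Apoc2: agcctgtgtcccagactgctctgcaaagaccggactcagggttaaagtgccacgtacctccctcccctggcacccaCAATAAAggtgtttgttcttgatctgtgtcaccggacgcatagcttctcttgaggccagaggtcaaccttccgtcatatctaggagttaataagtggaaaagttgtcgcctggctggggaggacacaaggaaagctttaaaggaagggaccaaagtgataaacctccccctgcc
The *Enpp7* match begins 7 bases before the start and the *Apoc2* match 174 bases before it.

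**Figure D4:**
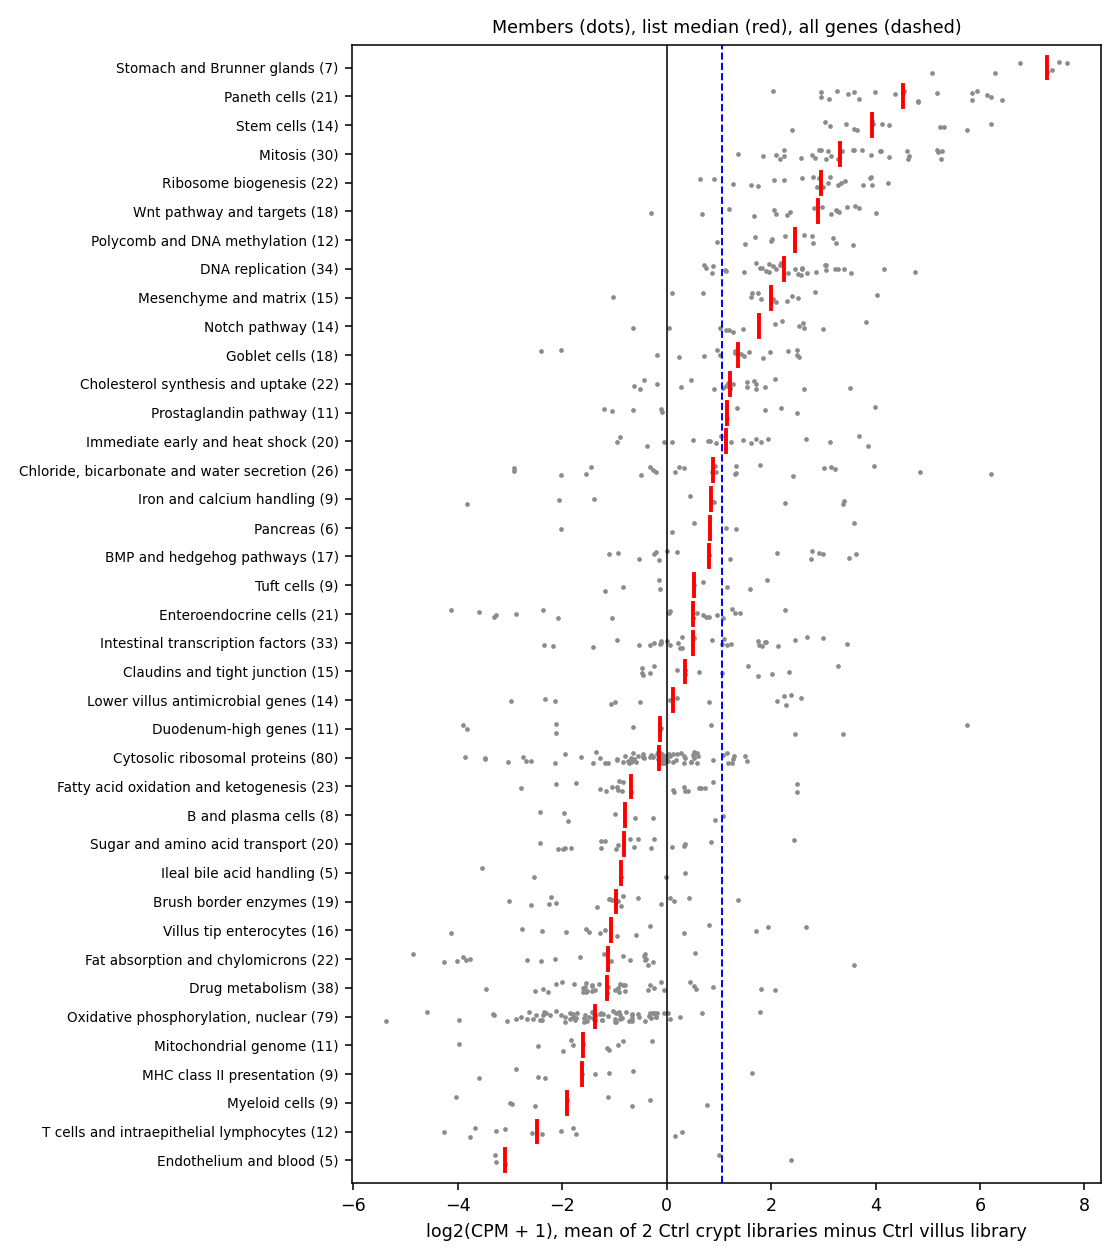
Log2(CPM + 1) difference, mean of the 2 Ctrl crypt libraries minus the Ctrl villus library, for the members (dots) of each gene list with at least 5 members listed for both tissues; red bars are list medians, the black line marks 0 and the dashed line the median of all genes, 1.06. Medians run from 7.28 for stomach and Brunner gland genes to -3.10 for the endothelium and blood list, and TMM scaling, which moves the median of all genes to 0.10, turns medians just above 0 below it.

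Outside these groups, the 15 largest villus differences were led by *Cox7a1*, a subunit of cytochrome oxidase, with 3.22 and 3.37 against 176 CPM (log2 difference -5.37), *Prap1*, a secreted protein of the villus epithelium, with 5.88 and 4.84 against 239 CPM (log2 difference -5.24), and *Leap2*, an antimicrobial peptide and ghrelin antagonist, with 5.78 and 7.02 against 195 CPM (log2 difference -4.74). *Spink1*, a trypsin inhibitor, had 33.2 and 34.1 against 723 CPM (log2 difference -4.38), and *2200002D01Rik* 22.2 and 18.9 against 499.8 CPM (log2 difference -4.54). *Smim22*, a small membrane protein, had 4.09 and 4.79 against 111 CPM (log2 difference -4.36). The short mitochondrial subunits *Atp5k* and *Ndufa3* had 9.87 and 7.40 against 229 CPM (log2 difference -4.59) and 12.2 and 10.4 against 193 CPM (log2 difference -3.98), *mt-Nd3* had 7.93 and 6.73 against 131 CPM (log2 difference -3.99), and *Gm10076*, 68.7% of whose 50-base stretches occur in *Rpl41*, had 13.1 and 4.69 against 203 CPM (log2 difference -4.51). On the crypt side *Pnliprp2*, a lipase on the Paneth cell list, had 263 and 306 against 3.92 CPM (log2 difference 5.85), and *Slfn9* 94.9 and 97.6 against 1.03 CPM (log2 difference 5.58).

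Goblet cell genes lay on both sides. Of 18 members, 11 were higher in crypts (3 throughout) and 2 in villi (0 throughout), against 4 and 3 under TMM. Over all genes, 48.3% were higher in crypts (9.85% throughout) and 7.66% in villi (5.94% throughout). The list median stood 0.31 above that of all genes. *Muc2*, the gel-forming mucin of the intestine, had 1081 and 833 against 339 CPM (log2 difference 1.48). The secretory regulators *Atoh1*, *Spdef* and *Creb3l1* had 27.3 and 29.6 against 6.47 CPM, 31.0 and 24.7 against 10.5 CPM and 45.6 and 56.1 against 7.91 CPM. On the villus side, *Tff3*, the intestinal trefoil peptide, had 258 and 248 against 1355 CPM (log2 difference -2.42), and *Zg16*, a lectin of mucus, 465 and 561 against 2068 CPM (log2 difference -2.02). Neither *Tff3* nor *Zg16* was called throughout.

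Enteroendocrine genes lay on both sides but leaned to the villus beside all genes. Of 21 members, 7 were higher in villi, all of them hormone genes, and 4 in crypts (1 and 8 under TMM for crypts and villi). Over all genes, 7.66% were higher in villi and 48.3% in crypts. The list median stood 0.56 below that of all genes. *Sct* (secretin) had a log2 difference of -4.13, 18.2-fold higher in the villus library, *Gip* 33.1 and 28.5 against 383 CPM (log2 difference -3.60), *Pyy* 6.96 and 6.12 against 73.4 CPM (log2 difference -3.31), *Ghrl* (ghrelin) 12.3 and 7.02 against 98.6 CPM (log2 difference -3.27) and *Cck* 32.1 and 31.0 against 241 CPM (log2 difference -2.89). *Nts* (neurotensin) and *Sst* (somatostatin) had 13.6 and 29.5 against 107 CPM and 21.1 and 24.0 against 98.8 CPM, and *Sst* was the only one of the 7 not called throughout. *Insm1*, a transcription factor of endocrine progenitors, was higher in crypts with 18.0 and 21.3 against 3.30 CPM (log2 difference 2.26). *Tac1*, for the peptide substance P, was also higher in crypts with 18.7 and 16.5 against 6.47 CPM, though not throughout, and *Chga*, a granule protein, 74.6 and 83.0 against 165 CPM (log2 difference -1.06) with 1 crypt library short of 2-fold. Of the 18 tuft cell genes only 9 were listed for both tissues, and 7 more in the villus table alone. *Pou2f3*, the regulator of tuft cell fate, had 5.47 and 4.74 against 0.619 CPM (log2 difference 1.91).

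The antimicrobial genes of the lower villus were divided too, with 5 of 14 higher in crypts and 3 in villi (3 and 6 under TMM), a crypt share below the 48.3% of all genes. The lectins *Reg3b* and *Reg1* had 2947 and 1247 against 9597 CPM (log2 difference -2.32) and 287 and 293 against 1285 CPM (log2 difference -2.15), and *Reg3a* and *Reg3g* 31.5 and 52.0 against 327 CPM (log2 difference -2.98) and 2259.8 and 859 against 2762 CPM (log2 difference -0.99). For *Reg3b* and *Reg3g* crypt library 1 was well above crypt library 2, while *Reg3a* was higher in crypt library 2. *Dmbt1*, a scavenger receptor of the mucosa, was on the crypt side with 6043 and 4660.0 against 887 CPM (log2 difference 2.58), and the pore-forming *Gsdmc4* with 85.9 and 71.0 against 14.1 CPM (log2 difference 2.39).

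Many mitochondrial genes were higher in villi. The 11 genes of the mitochondrial genome listed for both tissues took 6.54% and 8.84% of the shared-gene reads of the crypt libraries and 22.8% of those of the villus library, and *mt-Co1* alone had 29888 and 39174 CPM in the crypt libraries and 135221 CPM in the villus library. Of 79 nuclear genes of oxidative phosphorylation, 47 were higher in villi (24 throughout) and 1 in crypts, with a median of -1.37. Over all genes, 7.66% were higher in villi (5.94% throughout) and 48.3% in crypts. *Atp5b*, the catalytic subunit of ATP synthase, had 2122 and 2155 against 3408 CPM (log2 difference -0.67) and was not called, and its small subunit *Atp5e* 72.5 and 51.5 against 621 CPM (log2 difference -3.32). *Ndufs1*, the largest subunit of complex I, was the crypt exception, with 201 and 200.1 against 57.7 CPM (log2 difference 1.78). The members called higher in villi had a median transcript length of 861 bases and those not called 1697 bases. After the length correction 37 were higher in villi and 0 in crypts. Of 80 ribosomal protein genes, 13 were higher in villi, with a median length of 665 bases, and 8 in crypts, with a median of 1568 bases, and the length correction left nearly the same counts, 14 and 8. *Rps28* had 19.1 and 17.8 against 280.5 CPM (log2 difference -3.85) and *Rpl4* 1897 and 1769 against 648 CPM. Their median was -0.15 here and -1.20 under TMM, which called 0 in crypts and 45 in villi, so a direction for the ribosomal proteins was not set by these data. Ribosomal and mitochondrial genes have near-identical copies elsewhere in the genome, to which reads could have been assigned. The same holds for other genes named here, of which *Ftl1* (78.8% of its 50-base stretches), *Hba-a1* (66.9%), *Hbb-bs* (65.5%), *Hspd1* (44.6%), *Npm1* (41.0%), *Gsdmc4* (38.5%), *Acaa1b* (35.1%) and *Pcna* (32.0%) share sequence with another gene, while *Nrarp* (79.4% of exon bases) and *Slc1a1* (31.9%) overlap a gene on the opposite strand.

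Drug metabolism genes leaned to the villus. Of 38 members, 17 were higher in villi (16 throughout) and 2 in crypts, against 7.66% (5.94% throughout) and 48.3% of all genes. *Sult2b1*, a sterol sulfotransferase, had 29.9 and 30.3 against 339 CPM (log2 difference -3.45), the carboxylesterase *Ces2e* 465 and 614 against 1448 CPM (log2 difference -1.44), and the alcohol dehydrogenase *Adh6a* 249 and 235 against 1060.3 CPM (log2 difference -2.13). *Cyp3a11*, a main drug-oxidising cytochrome, differed between the crypt libraries, with 46.3 and 189 against 176 CPM. The 2 on the crypt side were the carboxylesterase *Ces1d*, with 11.7 and 22.9 against 3.16 CPM (log2 difference 2.07), and the efflux pump *Abcb1a*, with 116 and 213 against 44.5 CPM (log2 difference 1.80). Of 23 genes of fatty acid oxidation and ketogenesis, 6 were higher in villi and 2 in crypts (12 and 2 under TMM). On the crypt side *Cpt1a*, the gate of mitochondrial fatty acid import, had 392 and 465 against 75.3 CPM (log2 difference 2.49). The peroxisomal thiolases *Acaa1a* and *Acaa1b* had 186 and 169 against 774 CPM (log2 difference -2.12) and 7.11 and 11.7 against 69.4 CPM (log2 difference -2.79), and *Hadh* 385 and 393 against 1306 CPM (log2 difference -1.75). Cholesterol synthesis and uptake genes were higher in crypts in 14 of 22 members and in villi in 0 (2 and 4 under TMM), but their median of 1.21 stood near that of all genes, became -0.04 after the length correction, and 1 gene, *Idi1*, with 61.7 and 71.5 against 4.88 CPM, was called throughout.

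In iron handling, *Tfrc*, the transferrin receptor, had 621 and 640.4 against 59.0 CPM (log2 difference 3.40), and the ferritin chains *Fth1* and *Ftl1* had 2075 and 2231 against 5644 CPM (log2 difference -1.39) and 639.8 and 625 against 2655 CPM (log2 difference -2.07). *Cybrd1*, the duodenal ferric reductase, had 15.4 and 24.5 against 0.963 CPM (log2 difference 3.38), with 14 villus reads, and *S100g*, the calcium binding protein of absorptive cells, 23.1 and 25.7 against 357 CPM (log2 difference -3.82). Among ileal bile acid genes *Fabp6* had 72.1 and 140.3 against 1186 CPM (log2 difference -3.55). Genes high in the duodenum were on both sides: of 11, 3 were higher in crypts (*Gkn3*, *Cybrd1*, *Onecut2*) and 4 in villi (*Adh6a*, *Fabp1*, *Lct*, *S100g*), against 3 and 7 under TMM. The shares over all genes were 48.3% in crypts and 7.66% in villi. The part of the intestine behind each library was not given, and its share in these differences was not tested.

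Notch pathway genes were higher in crypts in 11 of 14 members, against 48.3% of all genes, and in villi in 0 (7 and 1 under TMM). Against 9.85% of all genes, 3 members were called throughout. These were *Notch1*, with 40.4 and 44.6 against 2.06 CPM (log2 difference 3.83), *Hes1*, the target that holds progenitors on the absorptive path, with 99.5 and 90.9 against 14.8 CPM (log2 difference 2.61), and *Nrarp*, with 10.9 and 12.3 against 1.99 CPM. The ligand *Dll1* had 49.6 and 44.5 against 9.36 CPM (log2 difference 2.21). In BMP and hedgehog signalling 8 of 17 were higher in crypts and 0 in villi (7 and 6 under TMM), a crypt share near the 48.3% of all genes. *Ptch1*, receptor and target of hedgehog, had 36.4 and 36.0 against 1.99 CPM (log2 difference 3.63), *Smo* 50.3 and 33.9 against 2.75 CPM (log2 difference 3.50) and the ligand *Bmp7* 20.4 and 19.7 against 1.65 CPM (log2 difference 2.99). *Ihh*, the hedgehog ligand of the epithelium, had 58.2 and 59.9 against 65.6 CPM. *Id1*, a BMP target, had 55.1 and 42.7 against 105 CPM (log2 difference -1.10) and was not called.

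Of 33 intestinal transcription factors, 12 were higher in crypts and 3 in villi (5 and 9 under TMM), with 3 and 3 throughout. The crypt share was below the 48.3% of all genes, and the share called in crypts throughout was near 9.85%. On the crypt side throughout stood *Ehf* (229 and 243 against 20.5 CPM), *Foxa1* (43.9 and 43.9 against 5.98 CPM) and *Foxa2* (10.5 and 13.4 against 1.93 CPM), and the villus side held *Esrra* (93.6 and 101 against 499.7 CPM), which drives mitochondrial genes, and *Maf* (83.6 and 103 against 249 CPM). *Cdx2* and *Hnf4a*, identity factors of the whole epithelium, had 255 and 262 against 222 CPM and 831 and 922 against 607 CPM. Of 15 tight junction genes, 6 were higher in crypts, led by the pore-forming claudin *Cldn2* with 256 and 260.5 against 25.5 CPM (log2 difference 3.29), called throughout, and 0 in villi (2 and 5 under TMM), a crypt share below the 48.3% of all genes.

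The prostaglandin pathway, on which the study centres, was sparse. Of 22 members 11 were listed for both tissues, 4 of them higher in crypts, a share below the 48.3% of all genes, and 1 in villi (2 and 5 under TMM). *Ptger4*, the EP4 receptor for prostaglandin E2, had 32.4 and 30.8 against 7.84 CPM (log2 difference 1.88). *Pla2g4a*, the phospholipase that frees arachidonic acid, had 31.4 and 33.3 against 1.10 CPM (log2 difference 3.99), called throughout, and *Hpgd*, which breaks prostaglandins down, 97.0 and 138 against 239.7 CPM (log2 difference -1.05). *Ptges2*, a prostaglandin E synthase, was the member on the villus side, with 52.7 and 53.9 against 124 CPM (log2 difference -1.21). *Ptgs1* had 19.9 and 8.63 CPM in the crypt libraries and 5.37 CPM in the villus library, with 1 crypt library past 2-fold. *Ptger3* was listed in the crypt table only, while *Ptgs2*, *Ptger1*, *Ptger2* and *Gli1* were in neither table.

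Many markers of cells other than epithelium differed between the tissues. Over all genes, 7.66% were higher in villi, and 5.94% were so throughout. T cell and intraepithelial lymphocyte genes were higher in villi in 10 of 12 members, all throughout, with a summed level of 77.5 and 193 CPM in the crypt libraries and 1089 CPM in the villus library. *Cd7*, a surface protein of these lymphocytes, had 0.921 and 5.03 against 64.8 CPM (log2 difference -4.27), and *Gzma*, a granzyme, had 22.0 and 55.7 against 492 CPM (log2 difference -3.77), *Ccl5* 8.64 and 27.9 against 212 CPM (log2 difference -3.67) and *Cd8a* 6.50 and 20.1 against 50.1 CPM (log2 difference -2.02); 9 more members, *Trdc* among them, were listed in the villus table only. *Ptprc*, an immune cell marker on the T cell list, had 10.6 and 20.6 against 11.9 CPM (log2 difference 0.29) and was not called. Of 9 myeloid genes, 5 were higher in villi, among them the complement gene *C1qb* with 1.43 and 0.806 against 33.4 CPM and *Lyz2* with 42.5 and 21.9 against 245 CPM. *Itgam*, also on the myeloid list, had 22.9 and 16.1 against 10.8 CPM (log2 difference 0.78) and was not called. Of 8 B and plasma cell genes 3 were higher in villi, among them *Igha* with 105 and 66.4 against 329 CPM. The haemoglobin genes *Hbb-bs* and *Hba-a1* had 19.9 and 62.2 against 350.1 CPM and 10.7 and 54.7 against 218 CPM, whereas *Esam*, of endothelial junctions, was on the crypt side with 15.3 and 7.40 against 1.24 CPM. Mesenchyme and matrix genes were higher in crypts in 11 of 15 members, 3 of them throughout, against 48.3% and 9.85% of all genes. TMM called 4 in crypts and 1 in villi, and the length correction 3 and 2. Their summed level was 1233 and 712 CPM in the crypt libraries and 394 CPM in the villus library. The list was led by the proteoglycan *Dcn*, with 318 and 182 against 13.8 CPM (log2 difference 4.03). *Fbln1* went the other way, with 72.1 and 89.9 against 165 CPM (log2 difference -1.03), and was not called. *Acta2*, *Des* and *Thy1* were listed in the villus table only, and *Col4a2* and *Pdgfra* in the crypt table only. Crypt library 1 carried more mesenchyme and matrix RNA, with *Col1a1* at 88.6 and 39.1 against 11.2 CPM. The part of cells other than epithelium in the other differences was not tested.

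The crypt libraries also differed from each other in 2 groups. MHC class II genes summed to 845 and 227 CPM in the crypt libraries and 1669 CPM in the villus library. *Cd74*, the invariant chain, had 558 and 102 against 735 CPM, and *H2-Ab1* had 65.4 and 15.1 against 396 CPM (log2 difference -3.60). Of 9 members 4 were higher in villi, 3 of them throughout, against 7.66% and 5.94% of all genes. Of 20 immediate early and heat shock genes, 8 were higher in crypts and 0 in villi (4 and 3 under TMM), a crypt share below the 48.3% of all genes. Crypt library 1 had the higher level of *Fos*, with 450.2 and 178 against 72.7 CPM, and of *Egr1*, with 344 and 134 against 13.8 CPM. *Junb* lay lower in crypts, with 119 and 80.0 against 189 CPM (log2 difference -0.95), and was not called. *Egr1* was called throughout, as was the chaperonin *Hspd1*, with 1040.3 and 934 against 76.3 CPM.

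Few well expressed genes were listed for 1 tissue only. Of 327 genes in the crypt table alone, 5 had at least 20 CPM in both Ctrl crypt libraries: *Muc6*, a gland mucin, with 85.1 and 43.9 CPM, *Psca* with 34.9 and 39.5 CPM, the stomach claudin *Cldn18* with 28.4 and 38.1 CPM, *Anxa10* with 28.0 and 30.3 CPM, and *Samd5* with 22.5 and 31.6 CPM. Of 1474 genes in the villus table alone, 14 reached 20 CPM, led by *Slc51b*, a subunit of the basolateral bile acid exporter, with 49.1 CPM, *Npl* with 40.2 CPM, *Trib3* with 36.8 CPM and the complement gene *C1qa* with 35.7 CPM. *Tyrobp*, *Ctsw* and *Cd3d*, genes of immune cells, were among the others, with 27.4, 25.4 and 22.1 CPM. Absence from a table does not mean absence of reads, since the smallest mean kept was 48.4 normalized counts in the crypt table and 8.82 in the villus table.

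The same comparison in Gli1-PtgscKO mice gave each of 2 crypt libraries against each of 2 villus libraries. All 4 differences were above 0 for 57.7% of all genes and below 0 for 16.0%. Of the 1106 genes called higher in Ctrl crypts throughout, 1087 (98.3%) were higher in all 4 Gli1-PtgscKO differences. Of the 667 on the villus side, 605 (90.7%) were lower in all 4 and 0 were higher in all 4. *Olfm4* had 3677 and 3289 CPM in Gli1-PtgscKO crypts and 255 and 172 CPM in Gli1-PtgscKO villi, and *Muc5ac* 377 and 595 CPM in Gli1-PtgscKO crypts and 2.74 and 1.12 CPM in Gli1-PtgscKO villi. The median difference of the stem cell list lay between 2.83 and 3.31 in the 4 pairings, against 3.94 in Ctrl. That of mitosis lay between 2.31 and 2.72, against 3.33, and that of brush border enzymes between -2.29 and -1.29, against -0.98. The median over all genes lay between 0.47 and 0.67 in the 4 pairings, against 1.06 in Ctrl. The list medians of the 2 genotypes are therefore not on a common level. Whether the genotypes differ in any of these was not tested.

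**Figure D5:**
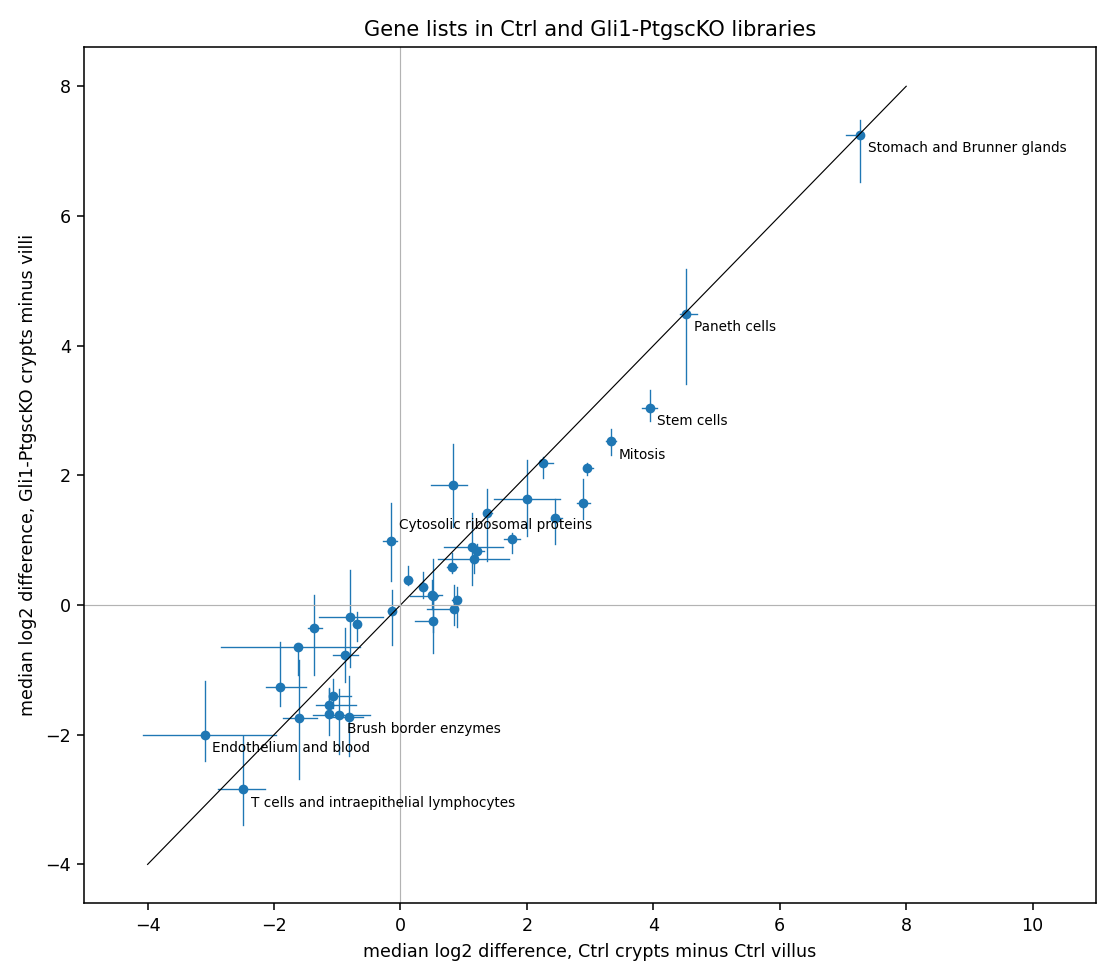
Median log2(CPM + 1) difference between crypts and villi of each gene list with at least 5 members, in Ctrl on the x axis (horizontal lines span the 2 crypt libraries) and in Gli1-PtgscKO on the y axis (vertical lines span the 4 pairings); the diagonal marks equal values. Most lists lie on the same side of 0 in both genotypes. The exceptions are the ribosomal protein list, at -0.15 and 0.99, the enteroendocrine list, at 0.51 and -0.25, and the iron and calcium list, at 0.85 and -0.07. The median over all genes was 1.06 in Ctrl and 0.56 in Gli1-PtgscKO.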

How the data were processed

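RNA was extracted from isolated crypts and villi and sequenced. Per the labels, reads were aligned with STAR to mm10 and analysed with DESeq2; the counter, its strand setting and the annotation are not given in the sources used here. The labels and the study's methods name different extraction and library kits. The authors deposited 1 table per tissue with a normalized signal per gene (counts divided by a DESeq2 size factor), normalized separately, beside their own fold changes and p-values, which were not used. Counts were recovered from the steps of the values (whole within 0.001), and no column was left unmapped.

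Each Ctrl column was scaled to CPM over the genes in both tables, and log2(CPM + 1) differences of each crypt library from the villus library were taken. A minimum mean of 1 CPM removed 0 genes. Gene names were those given with the deposited values. Transcript lengths, GC content and positions came from GENCODE vM21 (GRCm38), promoters from RefSeq. TMM (edgeR 4.0.16) and DESeq2 1.42.0 factors, lowess corrections (span 0.3; statsmodels 0.14.6, Python 3.11.15) on transcript length and GC, other pseudocounts, filters and thresholds, and leaving out each crypt library were tried. Scripts were tested on simulated data. Members and lists were chosen with earlier results of these data known. Named genes were the 15 largest differences in each direction at 20 CPM or more on average, the most abundant genes, genes the study names, and list members chosen by difference, level or role.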

Additional observations from a re-analysis of the deposited data

Results flagged for a closer look

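Of the 5427 genes higher in Ctrl crypts on the CPM scale, 42 were lower in crypts in all 4 pairings of Gli1-PtgscKO libraries, and 1 of these 42 was called throughout. Among the genes and lists described above, 5 genes and 1 list had opposite signs in Ctrl and in all 4 pairings, and *Mgam* and *Abcb1a* are among the 42. These differences between genotypes were not tested, and with 1 Ctrl villus library they have no replicate on that side.

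For all 5 genes the sign in Ctrl depended on the processing. *Mgam*, the maltase-glucoamylase, had a log2 difference of 1.36 in Ctrl and a mean of -1.23 in Gli1-PtgscKO (-2.23 to -0.23), with 683 and 1432 CPM in Gli1-PtgscKO crypts and 3207 and 1678 CPM in Gli1-PtgscKO villi. Its Ctrl difference was -0.45 after the length correction and -0.67 after the length and GC correction, on the side of Gli1-PtgscKO. *Sis* had 0.42 in Ctrl and -1.26 in Gli1-PtgscKO (-2.08 to -0.43). *Apob* had 0.54 and -1.83 (-2.88 to -0.78), and *Slc9a3* 0.34 and -0.92 (-1.81 to -0.03). Under TMM the Ctrl differences of *Sis*, *Apob* and *Slc9a3* were -0.63, -0.52 and -0.70, below 0. TMM and the length and GC corrections were applied to the Ctrl libraries only. All Gli1-PtgscKO values here are on the CPM scale, so the rescaled Ctrl values are not on like terms with them. *Abcb1a*, the efflux pump, had 1.80 and -1.13 (-1.96 to -0.30), and its Ctrl difference was -0.082 after the length and GC correction.

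The median of the ribosomal protein genes was -0.15 in Ctrl and 0.99 in Gli1-PtgscKO, where it ran from 0.37 to 1.57 over the 4 pairings. The Ctrl median was -1.20 under TMM and -0.14 after the length correction, neither of which was applied to the Gli1-PtgscKO libraries.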

How the results depend on the processing

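The counts of genes depended on the scaling. Genes higher in crypts numbered 5427, against 2692 with TMM, 2410 with DESeq2 size factors, 1975 after the length correction, 1748 after the length and GC correction, and 2498 at a threshold of 4-fold. Genes higher in villi numbered 860, against 2419, 2660, 2033, 1844 and 234 in the same order. The share of crypt calls among all calls was 86.3%, 52.7% with TMM and 49.3% after the length correction. Under all 5 treatments together, an alternative chosen after seeing the data, 1106 and 667 genes were called. Leaving out 1 crypt library gave 5724 to 5893 and 1018 to 1025 genes. The other alternatives (a pseudocount of 0.1, own table totals, no filter, at least 10 CPM, and, chosen after seeing the data, totals without mitochondrial genes) kept both counts within 1.5 times. At 50 CPM, 0 genes instead of 5 were well expressed in the crypt table only and 0 instead of 14 in the villus table only.

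The length correction turned the median of the cholesterol list to -0.043, *Mgam* to -0.45 and *Onecut2* to -0.032, and the length and GC correction turned *Mgam* to -0.67, *Onecut2* to -0.53 and *Abcb1a* to -0.082; the cause was not tested. No other gene named above that was called and no other list with a median of at least 1 in size changed sign. TMM turned smaller list medians below 0, from 0.90 to -0.15 for fluid secretion, 0.85 to -0.18 for iron and calcium, 0.82 to -0.23 for BMP and hedgehog, 0.52 to -0.41 for tuft cells, 0.51 to -0.51 for enteroendocrine cells, 0.49 to -0.54 for transcription factors, 0.36 to -0.69 for tight junctions and 0.12 to -0.93 for the lower villus list. No paired analysis was possible because the 2 Ctrl villus columns are identical, which leaves 1 villus library and fewer than 2 pairs. Depth limits genes with few villus reads, such as *Muc5ac* and *Tff2*, and a villus library without a replicate leaves the spread among villi unmeasured.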
